A study of Mus musculus with 11 samples.

Results

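Macrophages that resemble those of the healthy mammary gland were compared between MYC and control tumours. These mammary tissue macrophages (MTMs) lie in the stroma of a mammary tumour, and 5 of the 11 sequenced libraries came from them, 2 from MYC mice (mice 2 and 4) and 3 from control mice (mice 1, 3 and 5). The members were taken by label and all 17475 genes of the table were tested. The other 6 libraries were tumour-associated macrophages (TAMs) of the parenchyma, 3 from the same control mice and 3 from MYC mice 2, 4 and 6. They entered the estimate of the spread and served as the comparison for single genes. Every mouse carried PyMT, a viral oncogene that makes mammary tumours when it is expressed in the gland. The MYC mice also carried S100a8-cre, which acts where the S100a8 promoter is active, and Rosa26-LSL-MYC, a MYC transgene that Cre switches on by removing a stop. All mice were labelled female and backcrossed to B6. At an age of 7 weeks, mice of both genotypes were lethally irradiated and received 3 M (M for mega) bone marrow cells of wild-type B6 donors. A low protein diet began 2 weeks later and lasted 6 weeks, in both genotypes, so no mouse was on a standard diet. How many of the sorted macrophages still came from the host is not given in the labels. MTMs were sorted as living CD45+ F4/80+ Vcam- FOLR2+ cells and TAMs as F4/80+ Vcam+ cells, both after removal of cells with SiglecF, Ly6G, B220 or Ly6C.

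Tissue-resident macrophages of the mammary gland live beside ducts and vessels, carry receptors such as FOLR2, LYVE1 and MRC1, and clear debris. In tumours, adipose tissue and injured organs, macrophages that take up much lipid or cell debris switch on a programme of lysosomal proteins, lipid-binding proteins and the surface protein GPNMB. Lysosomes sense amino acids through the Rag GTPases and mTORC1, and transcription factors of the TFEB and TFE3 family act on lysosomal genes when that pathway is quiet.

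Levels are given on the deposited log2 scale, which behaves as the log2 of 1 plus a depth-scaled and length-scaled read number, so that differences understate the change of genes with low levels. Read depth was estimated from the spacing of low values at 36.4 to 40.2 M reads in genes for the MTM libraries and 33.1 to 43.8 M reads for the TAM libraries. Over the 5 MTM libraries, the first principal component held 46.1% of the variance, with the MYC libraries at -35.65 and -30.83 and the control libraries at 8.74, 38.4 and 19.34. Across 1729 genes with a mean level of 5 or more, the SD of the log2 difference was 0.369 between the 2 MYC libraries and 0.499 to 0.598 between control libraries. Between a MYC and a control library it was 0.565 to 0.706, a range that overlaps that of the control pairs. The TAM library of MYC mouse 4 stood apart, with 581 genes without reads against 2072 to 3522 in the other libraries.

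Several Y-linked genes differed between the genotypes. Although all mice were labelled female, RNA of the Y-linked genes Ddx3y, Eif2s3y and Kdm5d was present in every MYC library and nearly absent from every control library. Ddx3y, a Y-linked RNA helicase (chrY:1260771-1286629), had levels of 2.89 and 3.27 in the MYC MTMs and 0.01, 0.01 and 0.06 in the control MTMs. In the TAMs it was at 4.37, 4.74 and 4.50 in MYC mice and at 0.01, 0.01 and 0.04 in control mice. Estimated reads could be summed for 63 of 65 Y-linked genes, those without a read in at least 2 libraries, a choice that in part fixes low sums. They were 1396 and 1708 in the MYC MTM libraries and 0, 4 and 5 in the control MTM libraries. The 2 genes left out, looked up after their values were seen, were Uty, at 1.02 and 1.28 against 0.25, 0.12 and 0.12, and Gm21857, a gene model that did not follow genotype this way, at 1.79 and 2.03 against 2.12, 2.50 and 1.85. Ddx3y was higher in MYC MTMs by 3.05 ± 0.20 (SE, limma with Benjamini-Hochberg adjustment, adjusted p = 0.000363) and passed in each of the 11 fits that left out 1 library. Eif2s3y, a Y-linked translation factor, had levels of 2.20 and 1.93 against 0.02, 0.07 and 0.02 (adjusted p = 0.0185). Kdm5d, a Y-linked histone demethylase, had levels of 0.81 and 1.13 against 0.01 in each control MTM library (adjusted p = 0.0745). The labels do not give the sex of the marrow donors. The MYC genotype and the presence of Y-linked RNA cannot be told apart in any comparison below.

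**Figure D1:**
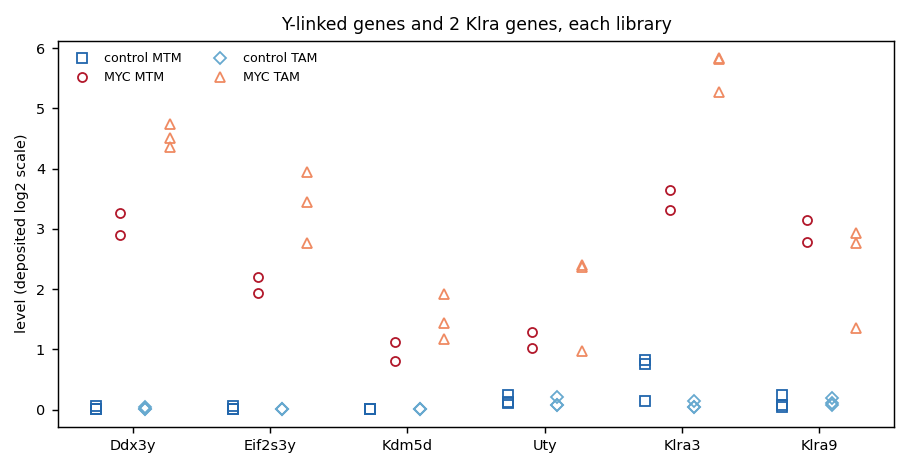
Levels of 4 Y-linked genes and of Klra3 and Klra9 (horizontal axis) on the deposited log2 scale (vertical axis), 1 point per library, by group. For Ddx3y the MYC libraries lie between 2.89 and 4.74 and the control libraries at 0.06 or less.

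The genes of the sort gate were measured next. Folr2, the folate receptor that defines the gate, was at 8.45 and 8.07 in the MYC MTMs and at 7.77, 8.05 and 7.67 in the control MTMs, against 0.96 to 3.62 in the TAM libraries. Both genotypes therefore had the Folr2 level of the gate, and their ranges were close (difference 0.43 ± 0.62 SE, adjusted p = 0.996). Emr1, the gene of F4/80, was at 9.89 and 9.88 against 9.54, 9.96 and 9.61 (difference 0.18 ± 0.29 SE, adjusted p = 1). Ptprc, the gene of CD45, was at 5.96 and 6.23 against 6.36, 6.54 and 6.13. Siglec5, an older symbol of the SiglecF gene, stayed at 1.16 or less in all MTM libraries. Ly6c1 was at 0.50 to 1.87 and Ly6c2 at 0.34 to 1.29, with no call for either. Vcam1, an adhesion molecule, was an exception. Its RNA was at 5.31, 6.86 and 5.25 in control MTMs, although these were sorted as Vcam negative, and at 2.32 and 2.31 in MYC MTMs. Vcam1 fell by 3.49 ± 0.61 (SE, limma, adjusted p = 0.0445). That call held in 2 of 11 fits that left out 1 library, and the adjusted p was 0.319 without the MYC MTM library of mouse 2 and 0.256 without that of mouse 4. It was also lost with the mouse as a random block. In the MYC TAMs, sorted as Vcam positive, Vcam1 RNA was at 0.96, 1.61 and 2.82, against 8.60, 7.64 and 8.57 in control TAMs.

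Myc RNA itself differed little in MTMs. It was at 2.87 and 3.02 in the MYC MTMs and at 2.53, 2.62 and 2.75 in the control MTMs, so that the groups did not overlap but lay close together (difference 0.31 ± 0.21 SE, adjusted p = 0.733). Whether reads of the transgene are counted in this gene is not stated. S100a8, whose promoter drives Cre, was at 3.59 and 3.16 against 3.50, 3.20 and 1.58, and its partner S100a9 was at 0.55 or less in all 5 libraries. No member of the 17 genes of the MYC network passed (median difference 0.00). Among 41 genes of ribosome biogenesis that MYC is known to activate, none passed, and the median difference was 0.22 beside -0.02 over all genes. Of these, 13 were above all control libraries in both MYC libraries and 3 were below, where 11.1% and 20.1% of all genes were. In TAMs, Myc RNA was at 2.16, 1.92 and 1.78 in MYC mice and at 2.66, 3.18 and 3.11 in control mice. Its difference there was -1.02 ± 0.19 (SE, limma, adjusted p = 0.00583). The difference between the cell types missed the threshold (MTM minus TAM 1.33 ± 0.28 SE, adjusted p = 0.0622).

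Over all genes, 108 of 17475 passed an adjusted p of 0.05 (0.618%), of which 59 were higher in MYC MTMs (0.338%) and 49 lower (0.28%). For all 108 the MYC and control libraries did not overlap, as they did not for 31.2% of all genes. At an unadjusted p below 0.05, 3.53% of genes were higher and 6.55% lower. The largest rises were those of Saa3, Atp6v0d2, Gpnmb, Fabp4 and Npy, and the largest falls those of Fgb, Fgg, Vcam1, Hpgd and Ear2. These calls rest on the spread shared by all 4 groups, so leaving out a TAM library changes that spread but not the MTM difference. The calls of Ano1, Bnip3, Clec4d, Fstl1, Gla, Hpgd, Hpse, Klra9, Mcoln3, Trf and Vcam1 were lost without any 1 of the 5 MTM libraries. The fits in which these calls held were all fits that left out a TAM library. With the 5 MTM libraries alone no gene passed in limma, with a smallest adjusted p of 0.0708 and 2513 genes at an unadjusted p below 0.05. Each group has its own mean, so the differences are the same in that fit and their direction is no check. Of the 42 named genes that passed, 12 passed in every fit that left out 1 library, namely Atp6v0d2, Npy, Tm4sf19, Ddx3y, Klra3, Fbxo32, Gstm1, Fgb, Fgg, Upk3a, Wif1 and Hepacam2. The other 30 lost the call in at least 1 such fit. Without the MYC MTM library of mouse 2, 25 of the 42 lost it, and without that of mouse 4, 27 did.

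**Figure D2:**
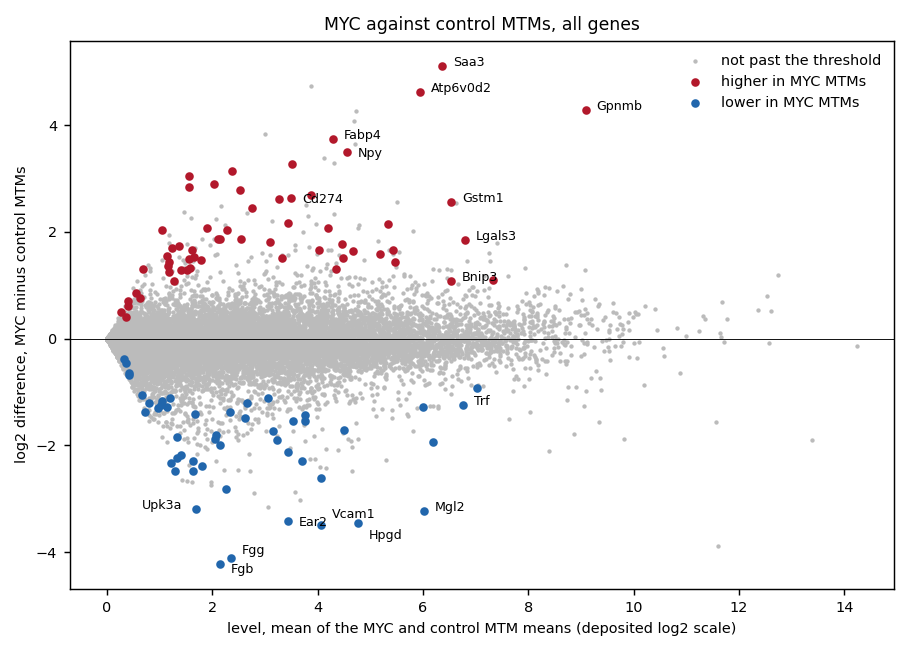
Difference between MYC and control MTMs (vertical axis, log2) against the level of each gene (horizontal axis, mean of both group means on the deposited log2 scale). Coloured points are the 59 genes higher and the 49 lower at an adjusted p of 0.05, and Saa3 is the highest and Fgb the lowest of them.

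Genes of the lipid-associated macrophage programme included 4 that rose among 28 measured, and none fell (0.338% and 0.28% of all genes). The strongest were a proton pump subunit and a surface glycoprotein of the lysosomal pathway. Atp6v0d2, a macrophage and osteoclast subunit of the vacuolar proton pump (chr4:19876841-19922605), was at 7.86 and 8.65 in MYC MTMs and at 3.94, 3.03 and 3.92 in control MTMs. All MYC values lay far above all control values. The difference was 4.62 ± 0.35 (SE, limma, adjusted p = 0.00123), a 24.7-fold change on this scale. Gpnmb, a transmembrane glycoprotein of lysosome-rich macrophages (chr6:49036546-49070929), was at 10.92 and 11.55 against 7.15, 6.21 and 7.47. It was among the most abundant of the changed transcripts, and its difference was 4.29 ± 0.45 (SE, adjusted p = 0.00415), with an adjusted p of 0.0616 without the MYC MTM library of mouse 4. Fabp4, a fatty acid carrier of adipocytes and macrophages, was at 5.69 and 6.63 against 2.54, 2.48 and 2.27. The Fabp4 difference was 3.73 ± 0.48 (SE, adjusted p = 0.0118), and the adjusted p was 0.143 without the MYC MTM library of mouse 4 and 0.0547 without that of control mouse 5. Lgals3, a galectin that binds damaged lysosomes, was at 7.72 in both MYC libraries against 6.03, 5.49 and 6.10. It rose by 1.85 ± 0.20 (SE, adjusted p = 0.00486) and missed the threshold without either MYC MTM library (adjusted p = 0.0524 and 0.0642).

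The other members of that programme ranged more widely. Of the 28, 16 lay above all control libraries in both MYC libraries and 3 below (11.1% and 20.1% of all genes), and the median difference was 0.49. Ctsk, a collagen-degrading cathepsin, was at 6.23 and 6.84 against 2.31, 2.19 and 4.14, but missed the threshold (adjusted p = 0.0621). Fabp5, another fatty acid carrier, was at 7.79 and 8.81 against 6.06, 6.85 and 6.64 (adjusted p = 0.214). Plin2, which coats lipid droplets, was at 8.50 and 8.68 against 7.59, 6.53 and 7.67 (adjusted p = 0.227). Itgax, the gene of CD11c, and Spp1, osteopontin, had differences of -1.13 and -0.76, with adjusted p of 0.24 and 0.655. Adipocyte markers, which share Fabp4 with this programme, also held Scd1 among the falls.

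Lysosomal genes lay mostly above the controls, with 1 call. Of 45 lysosomal genes, 27 were above all control libraries in both MYC libraries and 4 below (11.1% and 20.1% of all genes). At an unadjusted p below 0.05, 17 were higher and 1 lower (3.53% and 6.55% of all genes), and the median difference was 0.37. Gla, the lysosomal alpha-galactosidase that cleaves glycolipids, was at 5.84 and 6.11 against 4.21, 4.48 and 4.50. It was the member that passed (1.58 ± 0.24 SE, limma, adjusted p = 0.0247), and it did so in 4 of 11 fits that left out 1 library, with an adjusted p of 0.147 and 0.212 without the MYC MTM libraries of mice 2 and 4. Smpd1, acid sphingomyelinase, was at 4.70 and 4.60 against 3.87, 3.65 and 3.98 (adjusted p = 0.0934). Grn, progranulin, was at 9.17 and 9.27 against 8.46, 8.21 and 8.46 (adjusted p = 0.179). Of 17 subunits of the vacuolar proton pump, 10 were above all controls and 1 below (11.1% and 20.1% of all genes), and Atp6v0d2 was the 1 that passed. Mcoln3, a cation channel of endosomes and lysosomes, was at 3.37 and 4.45 against 1.30, 0.58 and 1.52 (adjusted p = 0.0484), a call that held in 2 of 11 fits that left out 1 library, with an adjusted p of 0.127 and 0.355 without the MYC MTM libraries of mice 2 and 4.

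Stretches of promoter are shown for 3 of the genes that rose and that hold the letters CACGTG in the 250 bases before their start, an E-box core that MYC with MAX and also TFEB and TFE3 are known to bind. Gla is the only called member of the list of lysosomal genes, and Bnip3 that of the glycolysis and hypoxia list. Cdk18, a kinase, was chosen after its values were seen, for the largest difference among the genes with a match. Cdk18 was at 4.18 and 4.85 in MYC MTMs and at 2.03, 2.47 and 2.57 in control MTMs (limma, adjusted p = 0.0489).
Gla: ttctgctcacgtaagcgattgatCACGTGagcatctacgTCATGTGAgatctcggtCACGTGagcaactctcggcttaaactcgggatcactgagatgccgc
Bnip3: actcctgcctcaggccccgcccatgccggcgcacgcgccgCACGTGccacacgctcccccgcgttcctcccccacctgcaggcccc
Cdk18: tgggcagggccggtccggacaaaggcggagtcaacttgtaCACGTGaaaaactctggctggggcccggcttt
Capitals mark CACGTG, which reads the same on both strands, and in Gla also TCACATGA, here on the other strand as TCATGTGA. The sequences are from RefSeq on GRCm38.p6, 5′ to 3′ on the minus strand, at chrX:134601154-134601255 for Gla, chr7:138909569-138909654 for Bnip3 and chr1:132139686-132139757 for Cdk18. In Gla the matches begin 227, 211 and 194 bases before the start, in Bnip3 at 108 and in Cdk18 at 32. Of the 59 genes that rose, 47 have a promoter in that table and 6 of these (12.8%) held CACGTG, namely Bnip3, Cdk18, Entpd3, Gla, P2ry2 and Trim25. Of the 49 that fell, 38 have one and 5 (13.2%) held it, and so did 9.03% of the promoters of 12856 genes of the table. TCACATGA was held by 1 of the 47, by 0 of the 38 and by 0.755% of all. A match describes these letters alone and is no evidence of binding.

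Genes of the Rag, mTORC1 and TFEB axis included 1 rise among 35. Fnip2, which with folliculin acts on the Rag GTPases, was at 3.09 and 3.48 against 1.20, 0.97 and 1.58. It rose by 2.04 ± 0.28 (SE, limma, adjusted p = 0.0157) and lost the call without either MYC MTM library or without that of control mouse 3 (adjusted p up to 0.169). Rragd, a Rag GTPase, was at 1.75 and 1.82 against 0.21, 0.28 and 0.43 and narrowly missed the threshold (adjusted p = 0.0544). Gpr137b, a lysosomal membrane protein, was at 7.89 and 8.12 against 6.50, 6.26 and 6.89 (adjusted p = 0.0739). The median over the 35 members was -0.08, beside -0.02 over all genes.

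Saa3, Npy and Cd274, an acute-phase, a peptide and a surface protein gene, also rose. Saa3, a serum amyloid made by macrophages in inflammation (chr7:46711998-46715700), had the largest difference. It was at 9.53 and 8.31 in MYC MTMs and at 4.92, 2.76 and 3.74 in control MTMs, a rise of 5.11 ± 0.69 (SE, limma, adjusted p = 0.014). Without the MYC MTM libraries of mouse 2 or 4 or the control MTM library of mouse 5 its adjusted p was 0.168, 0.071 and 0.0594. It was the 1 of 35 NF-kB and cytokine genes to pass. Npy, neuropeptide Y (chr6:49822710-49829507), was at 6.01 and 6.60 against 2.70, 2.98 and 2.73 (3.50 ± 0.33 SE, adjusted p = 0.00202). Cd274, the gene of the immune checkpoint ligand PD-L1, was at 4.42 and 5.22 against 2.32, 1.81 and 2.42. It rose by 2.64 ± 0.30 (SE, adjusted p = 0.00733), with an adjusted p of 0.0796 without the MYC MTM library of mouse 4.

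Further rises were of diverse function. Gstm1, a glutathione transferase, was at 7.58 and 8.07 against 5.46, 5.09 and 5.22 (2.57 ± 0.21 SE, limma, adjusted p = 0.0014). Among 29 genes of glutathione and NRF2 it was the 1 that passed, and Hmox1, heme oxygenase, was at 8.25 and 7.84 against 6.58, 6.26 and 6.49 (adjusted p = 0.0848). Tm4sf19, a tetraspan membrane protein, was at 4.82 and 5.46 against 1.79, 1.82 and 2.01 (adjusted p = 0.00202). Fbxo32, a ubiquitin ligase subunit known from muscle wasting, was at 4.22 and 4.92 against 1.94, 1.94 and 1.98 (adjusted p = 0.00337). These 3 genes passed with each library left out in turn. Htra1, a secreted serine protease, was at 3.67 and 4.22 against 0.57, 0.96 and 0.88 (adjusted p = 0.00733, and 0.0954 without the MYC MTM library of mouse 4). Mamdc2, a matrix proteoglycan, was at 5.02 and 5.41 against 2.06, 2.00 and 3.53 (adjusted p = 0.028, held in 4 of 11 fits that left out 1 library, and 0.225 without the MYC MTM library of mouse 4). Bnip3, a mitophagy receptor that rises in low oxygen, was at 7.16 and 6.97 against 5.86, 6.02 and 6.08, and was the 1 of 32 glycolysis and hypoxia genes to pass (adjusted p = 0.0334, held in 5 of 11 fits that left out 1 library, and 0.319 without the MYC MTM library of mouse 2). In that list 13 members lay above all controls and 4 below (11.1% and 20.1% of all genes), with a median of 0.34. Clec4d, a C-type lectin that senses microbial glycolipids, was at 5.55 and 5.43 against 4.08, 3.48 and 4.02 (adjusted p = 0.0455, held in 2 of 11 fits that left out 1 library, and 0.345 without the MYC MTM library of mouse 2). Hpse, a heparan sulfate endoglycosidase, was at 6.30 and 6.53 against 4.35, 3.75 and 4.69 (adjusted p = 0.0441, held in 1 of 11 fits that left out 1 library, and 0.282 without the MYC MTM library of mouse 4). The Hpse call was also lost without the variance trend, with constants of 0.1 and 0.5 in the logarithm and with quantile normalization. The calls of Mcoln3, Ano1 and Hpgd were lost under the same settings.

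Klra3 and Klra9, of the natural killer receptor cluster, also rose. Klra3 (chr6:130323289-130337574) was at 3.32 and 3.64 in MYC MTMs and at 0.15, 0.82 and 0.76 in control MTMs (2.90 ± 0.26 SE, limma, adjusted p = 0.00202). Klra9 (chr6:130178675-130193112) was at 2.79 and 3.16 against 0.04, 0.25 and 0.08 (2.85 ± 0.40 SE, adjusted p = 0.0166, held in 6 of 11 fits that left out 1 library). Klra genes encode Ly49 receptors, are near-identical copies and differ between mouse strains, so which copy gave the reads is uncertain. The Klra9 call was lost without any 1 of the 5 MTM libraries (adjusted p from 0.0555 to 0.169).

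**Figure D3:**
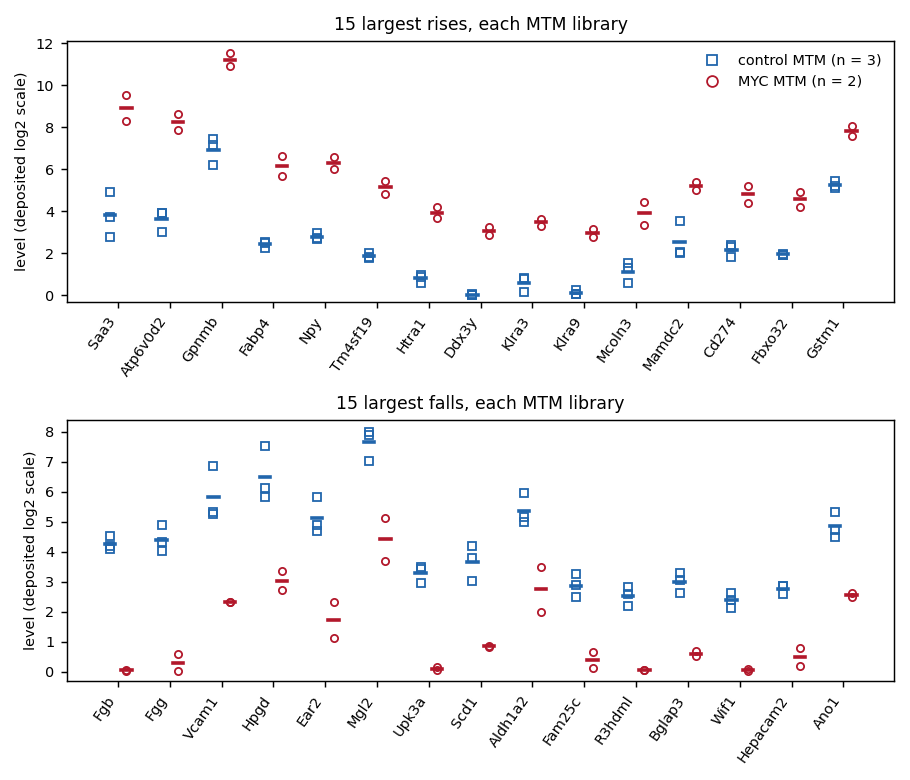
Level of the 15 genes with the largest rises (upper panel) and falls (lower panel) in each MTM library (vertical axis, deposited log2 scale), with control libraries as squares (n = 3), MYC libraries as circles (n = 2) and group means as bars. In no gene do the groups overlap, which was a condition for choosing them.

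The falls were led by 2 chains of fibrinogen, the clotting protein that is otherwise made mainly by the liver. Fgb (chr3:83040141-83049863) was at 0.06 and 0.03 in MYC MTMs and at 4.51, 4.08 and 4.18 in control MTMs. In estimated reads this was 1 and 0 against 1031, 795 and 790. Fgb fell by 4.21 ± 0.22 (SE, limma, adjusted p = 0.000119), the smallest adjusted p in the comparison. Fgg, on the same chromosome (chr3:83007724-83015049), was at 0.03 and 0.57 against 4.32, 4.02 and 4.87 and fell by 4.10 ± 0.34 (SE, adjusted p = 0.0014). Both genes passed with each library left out in turn.

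Other genes were nearly absent from MYC MTMs. Upk3a, a uroplakin of bladder epithelium, had 0 and 3 estimated reads against 324, 329 and 209, and levels of 0.05 and 0.16 against 3.48, 3.43 and 2.95 (adjusted p = 0.00178). Wif1, a secreted Wnt inhibitor, had 0 and 4 estimated reads against 289, 246 and 352 (adjusted p = 0.00202). R3hdml had no estimated read in either MYC MTM library against 190, 116 and 152 in the controls (adjusted p = 0.0108, held in 8 of 11 fits that left out 1 library, and 0.117 without the MYC MTM library of mouse 4). Hepacam2, of the immunoglobulin family, was at 0.18 and 0.78 against 2.58, 2.87 and 2.86 (adjusted p = 0.0021). The control MTMs held these transcripts at low but steady levels in all 3 mice.

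Genes of alternatively activated and resident macrophages split. Mgl2, a galactose-binding lectin of macrophages and dendritic cells, was at 3.70 and 5.11 against 8.00, 7.03 and 7.90. It fell by 3.24 ± 0.42 (SE, limma, adjusted p = 0.0118), with an adjusted p of 0.0808 without the MYC MTM library of mouse 2 and 0.0565 without that of control mouse 5. Ear2, an eosinophil-associated ribonuclease that macrophages also make, was at 1.13 and 2.32 against 5.83, 4.88 and 4.69. Ear2 fell by 3.41 ± 0.39 (SE, adjusted p = 0.00733), with an adjusted p of 0.0524 without the MYC MTM library of mouse 2, and it has close copies among the Ear genes. Retnla, a secreted protein of alternative activation, was at 8.39 and 10.92 against 13.98, 13.23 and 13.41, but the MYC libraries differed from each other and it missed the threshold (adjusted p = 0.0999). Chi3l3, another such product, went the other way, at 5.57 and 6.34 against 4.18, 1.62 and 2.17 (adjusted p = 0.0773).

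Of 31 measured genes of tissue-resident macrophages, Mgl2 was the 1 that passed, while 12 lay above all controls and 8 below (11.1% and 20.1% of all genes), and the median was 0.36. The share below is near that of all genes. Lyve1, a hyaluronan receptor of perivascular macrophages, was at 6.31 and 5.40 against 4.66, 2.97 and 3.53 (adjusted p = 0.0772). Marco, a scavenger receptor, was at 3.41 and 2.07 against 0.64, 0.50 and 1.50 (adjusted p = 0.103). The lectins Cd209a, Cd209d and Cd209f had differences of -2.42, -1.48 and -1.30, with adjusted p of 0.119, 0.113 and 0.116.

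Hpgd, Ptgs1, Aldh1a2 and Scd1, enzymes of lipid mediators, retinoids and fatty acids, fell. Hpgd, which inactivates prostaglandins, was at 2.73 and 3.34 against 6.12, 7.51 and 5.84 (-3.46 ± 0.60 SE, limma, adjusted p = 0.0455), a call that held in 2 of 11 fits that left out 1 library and was lost with the mouse as a random block. Its adjusted p was 0.358 and 0.19 without the MYC MTM libraries of mice 2 and 4. Ptgs1, which makes prostaglandin precursors, was at 3.63 and 3.64 against 5.57, 5.39 and 5.11 (-1.72 ± 0.24 SE, adjusted p = 0.0161, held in 8 of 11 fits that left out 1 library, and 0.158 without the MYC MTM library of mouse 2). Aldh1a2, which makes retinoic acid, was at 2.00 and 3.49 against 5.96, 4.99 and 5.14 (adjusted p = 0.0349, held in 2 of 11 fits that left out 1 library, and 0.242 without the MYC MTM library of mouse 2). Scd1, which desaturates fatty acids and is a target of the sterol sensor LXR, was at 0.84 and 0.85 against 3.01, 4.18 and 3.79 (adjusted p = 0.0455, held in 3 of 11 fits that left out 1 library, and 0.319 without the MYC MTM library of mouse 2). Among 17 measured LXR targets it was the 1 that passed, and the median was 0.02. Of 23 genes of cholesterol synthesis and uptake none passed. Of these, 15 lay below all controls and 0 above (20.1% and 11.1% of all genes), with a median of -0.36, and Idi1 had the lowest difference, at 1.97 and 2.17 against 2.77, 4.12 and 3.35 (adjusted p = 0.235).

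The genes of MHC class II presentation lay low in MYC MTMs, but none passed. Of 14 measured, 10 were below all control libraries in both MYC libraries and 0 above (20.1% and 11.1% of all genes). At an unadjusted p below 0.05, 9 were lower (6.55% of all genes). The median difference was -1.14, the lowest among the lists shown in the plot of gene lists. H2-DMa, which loads peptides, was at 7.09 and 7.60 against 8.79, 8.64 and 8.73 (adjusted p = 0.0544). Cd74, the invariant chain, was at 12.16 and 12.74 against 14.79, 13.83 and 14.40 (adjusted p = 0.168). Ciita, the regulator of these genes, was at 1.99 and 2.64 against 4.87, 3.43 and 4.14 (adjusted p = 0.103). Of 48 interferon response genes none passed, and the median was -0.23.

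**Figure D4:**
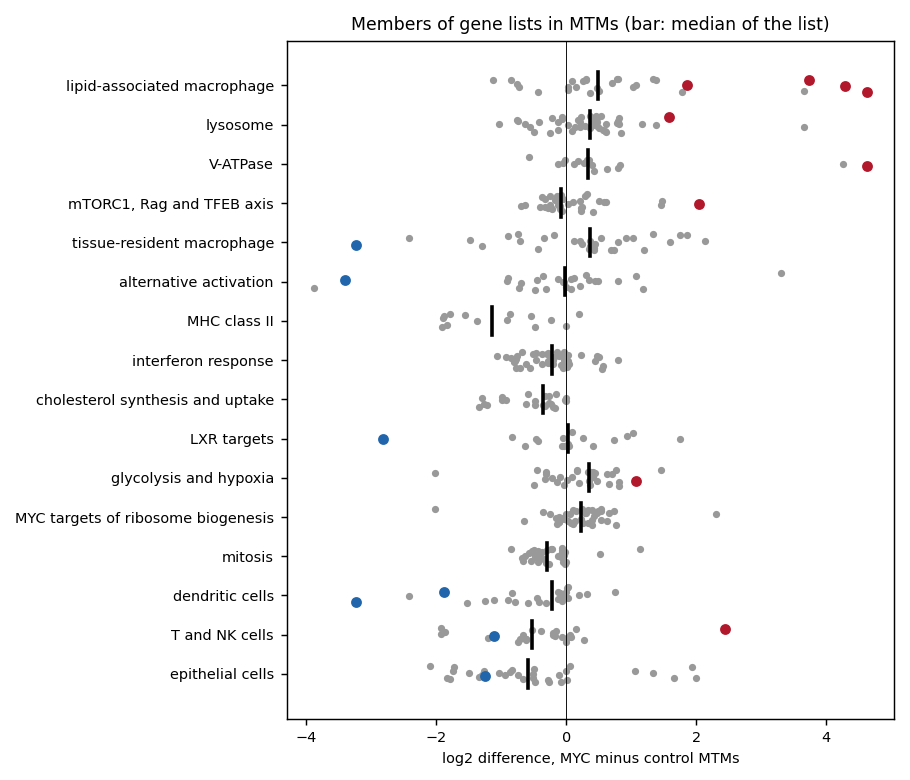
Difference between MYC and control MTMs (horizontal axis, log2) of each measured member of 16 gene lists, 1 point per gene, with the list's median as a black bar and genes past the threshold in colour (red higher, blue lower). The median of MHC class II lies at -1.14 and that of the lipid-associated list at 0.49.

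Markers of several other cell types were low in MYC MTMs. Batf3, a transcription factor of cross-presenting dendritic cells, was at 2.18 and 2.38 against 4.41, 3.87 and 4.22 (-1.89 ± 0.25 SE, limma, adjusted p = 0.0124, held in 8 of 11 fits that left out 1 library, and 0.146 without the MYC MTM library of mouse 2). Of 26 dendritic cell markers 2 fell, Batf3 and Mgl2 (0.28% of all genes), and 12 were below all controls and 2 above (20.1% and 11.1% of all genes). The summed level of the list was 414.6 and 490.8 in MYC MTMs and 665.7 to 834.1 in control MTMs. Without Mgl2, which macrophages also make, the sums overlapped, at 402.6 and 457.3 against 439.5, 704.3 and 428.3. The summed level of 27 T and NK cell markers was 17.3 and 49.3 against 59.9 to 73.7, with Cd3d at 0.04 and 0.17 against 1.23, 1.31 and 1.19. Among them Klrk1, the gene of the receptor NKG2D, fell by 1.11 ± 0.18 (SE, adjusted p = 0.0355, held in 4 of 11 fits that left out 1 library, and 0.302 without the MYC MTM library of mouse 2). Il7r, the interleukin-7 receptor, rose by 2.45 ± 0.36 (SE, adjusted p = 0.0206, held in 7 of 11 fits that left out 1 library, and 0.179 without the MYC MTM library of mouse 4). The summed level of 32 epithelial markers was 718.0 to 951.9 against 1501 to 2846, with Epcam at 5.02 and 5.43 against 5.43, 7.53 and 6.63. Trf, transferrin, fell by 1.25 ± 0.22 (SE, adjusted p = 0.0445, held in 2 of 11 fits that left out 1 library, and 0.332 without the MYC MTM library of mouse 2). Fstl1, a secreted glycoprotein on the fibroblast list, rose by 1.86 ± 0.31 (SE, adjusted p = 0.0396, held in 3 of 11 fits that left out 1 library, and 0.298 without the MYC MTM library of mouse 2). The summed fibroblast level was 32.3 to 44.1 against 35.5 to 82.0. Sums of B and plasma cell markers (82.5 and 99.6 against 121.9 to 151.6) and of eosinophil and mast cell markers (1.70 and 3.62 against 9.63 to 14.8) also lay below the controls. No member of either list passed, and many had no reads. These were 7 and 6 of 17 B and plasma cell markers in MYC MTMs against 4, 2 and 5 in control MTMs. Of 14 eosinophil and mast cell markers they were 6 and 7 against 3, 4 and 5. Sums of endothelial markers (122.4 and 78.1 against 41.0 to 60.0) and of adipocyte markers (96.4 and 155.9 against 53.4 to 71.1) lay above them. Without Lyve1 the endothelial sums were 44.3 and 36.8 against 34.2 to 42.9, and without Fabp4 the adipocyte sums were 45.7 and 57.7 against 48.6 to 66.5, so both overlapped. Sums of neutrophil markers (144.3 and 240.6 against 197.2 to 461.9) and of erythroid markers (24.6 and 31.3 against 21.5 to 55.4) overlapped too. In bulk libraries fewer cells of a type and less RNA per cell cannot be told apart. The part of these markers in the falls of Fgb, Upk3a, Mgl2 and the MHC class II genes was not tested.

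The remaining named falls were those of Ano1, Bglap3 and Fam25c. Ano1, a chloride channel of epithelia, was at 2.48 and 2.62 against 4.48, 4.73 and 5.32 (limma, adjusted p = 0.0497, held in 1 of 11 fits that left out 1 library, and 0.356 without the MYC MTM library of mouse 2). Bglap3, of the osteocalcin family and with close copies, was at 0.69 and 0.51 against 2.62, 3.05 and 3.30 (adjusted p = 0.0157, held in 7 of 11 fits that left out 1 library, and 0.154 without the MYC MTM library of mouse 4). Fam25c had 6 and 0 estimated reads against 53, 106 and 72 (adjusted p = 0.0344, held in 5 of 11 fits that left out 1 library, and 0.259 without the MYC MTM library of mouse 4).

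The same contrast was then read in the TAM libraries, from the same control mice, from MYC mice 2 and 4 and from MYC mouse 6, which has no MTM library. Of the 59 genes that rose in MTMs, 49 (83.1%) also passed as higher in MYC TAMs and 0 as lower, where 3.89% of all genes were called higher. Of the 49 that fell, 38 (77.6%) also passed as lower in TAMs and 0 as higher, where 12.0% of all genes were called lower. The MTM and TAM tests share the spread estimate of each gene and most of the mice, so they are not independent. Genes with a small spread pass more easily in both, so the shares over all genes are no fair baseline for this overlap. The median difference of the 59 was 1.70 in MTMs and 2.25 in TAMs, and that of the 49 was -1.73 and -2.26. The difference between the cell types was tested directly in the same limma fit. It passed for 12 of the 59 and 10 of the 49, and for 1.24% of all genes. The called genes were chosen by their MTM difference, which is part of this test, so that choice in part raises their share.

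The largest of these by size were Gpnmb, Hpse, Ptgs1, Atp6v0d2, Fabp4 and Ear2 among the named genes. Gpnmb was at 13.50, 13.24 and 13.86 in MYC TAMs and at 3.32, 3.61 and 4.59 in control TAMs. Its MYC difference was smaller in MTMs than in TAMs (MTM minus TAM -5.40 ± 0.60 SE, limma, adjusted p = 0.00754). Hpse was at 7.62, 7.87 and 7.96 in MYC TAMs against 0.75, 0.99 and 2.00, a larger difference than in MTMs (MTM minus TAM -4.42 ± 0.50 SE, adjusted p = 0.00754). Atp6v0d2 was at 9.60, 9.94 and 9.89 against 1.01, 1.00 and 1.75 in TAMs (adjusted p of the difference between cell types 0.00882). Fabp4 was at 8.46, 7.60 and 8.86 against 0.08, 1.49 and 1.36 (adjusted p of the difference between cell types 0.0347). All 4 had higher control levels in MTMs than in TAMs.

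Ptgs1 fell further in TAMs, from 6.99, 6.39 and 6.47 in control mice to 0.60, 1.16 and 1.08 in MYC mice, further than in MTMs (MTM minus TAM 3.95 ± 0.32 SE, limma, adjusted p = 0.0015). Ear2 went the other way. It was at 0.66 or less in all TAM libraries, so a fall of the MTM size was not possible there. Its fall was larger in MTMs (MTM minus TAM -3.05 ± 0.53 SE, adjusted p = 0.0308). Outside the rule for named genes, and chosen after their values were seen, Cd300e, Fcrl5 and Mucl1 were called in MTMs and not in TAMs, with differences between the cell types of 1.89 (adjusted p = 0.0282), 0.63 (0.0144) and -1.30 (0.00882). Mucl1 was at 0.08 in every TAM library, its value without reads.

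**Figure D5:**
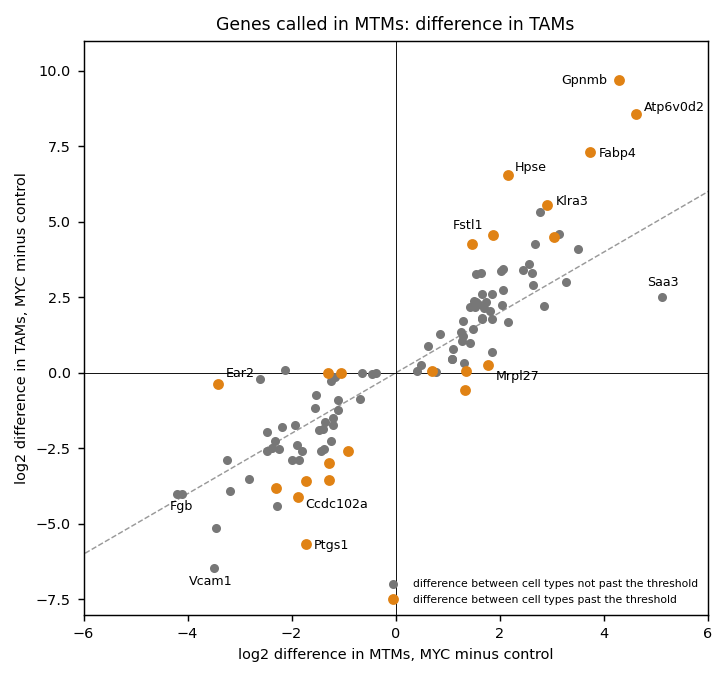
Difference between MYC and control mice in TAMs (vertical axis, log2) against that in MTMs (horizontal axis, log2) for the 108 genes called in MTMs, with the line of equal differences dashed. Orange points are the 22 genes whose difference between cell types passed, with Gpnmb and Atp6v0d2 at the upper right and Ptgs1 at the bottom.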

How the data were processed

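Per the labels' protocols, 500 ng of RNA per library, with integrity numbers between 3.3 and 9.6, went through poly-A capture and a strand-marking kit with 8 cycles of PCR. The submitters' processing notes name HISAT2, DESeq2, mm10 and GRCm38.p5 without a role. The authors deposited 1 table of log2 expression of 17475 genes. Its formula is not stated, and the form log2 of x plus 1 was read from the values: 100% of 4846 low values were whole reads within a tolerance of 0.1. The depths read from this spacing cover counting error alone. Names turned into dates or numbers (26) and entries that share a symbol (68) were tested but left unnamed. Genes were placed with GENCODE M21 on GRCm38 (98.6%).

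The log2 values were tested as the authors deposited them, in limma (version 3.58.1, R 4.3.3). The model held 1 mean per group (4 groups, 11 libraries) and a variance trend. Tests were two-sided, with Benjamini-Hochberg adjustment over all genes and a threshold of 0.05. The script was tested on simulated data. Counts and figures were made in Python 3.11.15 (pandas 2.3.3, numpy 2.4.6, matplotlib 3.10.9). Libraries of a group come from separate mice, but the spread was pooled over the 4 groups. The main fit treated the 11 libraries, from 6 mice, as independent. The p-values in MTMs thus also rest on the spread of TAM libraries, mostly from the same mice.

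The 45 gene lists (1201 of 1259 members measured), the named genes and this comparison were chosen with earlier results of these data known. The rule for named genes took up to 15 rises and 15 falls past the threshold without overlap, up to 4 called members per list, the gate genes, Myc, S100a8 and S100a9, and up to 6 genes with the largest difference between cell types. MYC and control libraries come from different mice, so a fixed mouse block could not be fitted. The random block estimated a correlation of 0.127 between libraries of a mouse. Alternatives were the 5 MTM libraries alone, no trend, other constants, a filter at a mean of 1, quantile normalization, median centring, library weights, the block, and leaving out each library.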

Additional observations from a re-analysis of the deposited data

Results flagged for a closer look

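For 11 named genes, the difference between MYC and control mice was not the same in MTMs as in TAMs by a direct test (limma, adjusted p under 0.05; values are the MTM difference minus the TAM difference, log2). The values were -5.40 for Gpnmb, -4.42 for Hpse, -3.93 for Atp6v0d2, -3.60 for Fabp4, -2.71 for Fstl1, -2.66 for Klra3 and -1.46 for Ddx3y, each of which rose in MYC mice in both cell types and more in TAMs. Hepacam2 (1.52) and Ptgs1 (3.95) fell in both and further in TAMs. Ear2 (-3.05) fell in MTMs and was at 0.66 or less in all TAM libraries. Emr1, the gene of F4/80, had a value of 1.99. It was at 7.50, 7.57 and 8.37 in MYC TAMs against 9.93, 9.40 and 9.56 in control TAMs, and was not called in MTMs. The MYC genotype and the Y-linked RNA of the MYC libraries cannot be told apart here either.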

How the results depend on the processing

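Against 108 calls (59 higher, 49 lower) and 216 genes whose difference varied between cell types, the 5 MTM libraries alone gave 0, 0 and 0 calls. Library weights gave 890 (341 higher, 549 lower) and 380 for the difference between cell types, with a weight of 0.0827 for the TAM library of MYC mouse 4, and kept all 108 calls. The filter at a mean of 1 gave 77 lower and 327 for the difference between cell types, and median centring gave 138 for the latter. Median centring moved the median of all genes from -0.02 to 0.06. The other settings stayed within 1.5 times: 113 without the trend, 83 and 100 with constants of 0.1 and 0.5, and 91 after quantile normalization. Of the 42 named genes that passed, 7 lost the call without the trend and 8 after quantile normalization. With the constants of 0.1 and 0.5, 10 and 4 lost it. Hpse, Mcoln3, Ano1 and Hpgd lost it under each of these settings. Vcam1, Scd1 and Clec4d lost it without the trend and after quantile normalization. All 108 genes kept their direction under every setting in which they were tested. Their MTM libraries do not overlap between the genotypes. Leaving out a library, other constants, library weights, the filter or no trend could therefore not reverse it, so this is little sign of stability.

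Leaving out 1 library gave 23 to 128 calls (11 to 76 higher, 7 to 53 lower) and 21 to 301 for the difference between cell types. It gave 32 calls without the MYC MTM library of mouse 2, 23 without that of mouse 4, 58 and 35 without the control MTM libraries of mice 3 and 5, and 67 and 65 without the control TAM libraries of mice 1 and 5. Without the TAM library of MYC mouse 4 there were 97. A group left with 1 library was assumed to vary like the others.

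With the mouse as a random replicate block there were 105 calls (59 higher, 46 lower), 100 of them shared, and 325 for the difference between cell types. Among named genes Vcam1 and Hpgd lost their calls with the block, and no other did. The number of MYC MTM libraries, 2, limits every value here.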
